A study of Mus musculus with 77 samples.

Results

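The enhancers described here are 2143 of the 44002 in a deposited table of mouse bone marrow enhancers. They were chosen by 2 of the authors' labels: a stage class naming preGM, GMP and granulocytes, and a class of bound factors that names neither PU.1 nor CEBPA. Of the 4508 enhancers in that stage class, 47.5% had no bound factor, against 59.5% of all enhancers. A separate 0 or 1 flag for GMP divided the 2143 into 1488 with flag 1 and 655 with flag 0, and in all of them the flags were 0 for LSK and 1 for preGM and granulocytes. The table assigns the 2143 enhancers to 1566 of its 10096 genes.

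Enhancers are stretches of DNA away from gene starts at which transcription factors bind and raise the activity of a gene. Nucleosomes beside them carry H3K4me1 whether the enhancer is active or only prepared, and carry H3K27ac when it is active. PU.1, the product of Spi1, and CEBPA are the transcription factors best known for setting up enhancers of the granulocyte and monocyte lineage. The enhancers described here are listed by the authors with neither factor. That label does not show that both were absent at every stage. Granulocytes arise through progenitors that first make the proteins of the primary granules, then stop dividing, and only later make the adhesion molecules, proteases and receptors of the mature cell.

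The cells were sorted from fresh mouse bone marrow. LSK cells lack lineage markers and carry Sca-1 and Kit, preGM lack Sca-1, CD150 and CD105 but carry Kit, GMP carry Kit and the Fc gamma receptors II/III, and granulocytes carry Mac1 and Gr-1. The labels give CEBPA KO preGM, and wild type LSK, preGM, GMP and granulocytes; they give no age, strain or deletion scheme for the KO. H3K27ac and H3K4me1 were measured in all 5 groups, PU.1 in all but granulocytes, and CEBPA is used here in wild type preGM. Each group had 2 ChIP-seq libraries, but the table holds 1 value per enhancer and group, so nothing below has a replicate error or a test, and the sequencing depth behind a value is unknown. Values are the authors' signal units. Log2 ratios have a pseudocount added to both values, 0.7 for H3K27ac, 2 for H3K4me1 and 0.6 for PU.1, and are centred on the median of all enhancers, and an enhancer is counted as higher or lower when it differs by at least 2-fold.

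Both the stage class and the bound class rest on measured signal, so the levels that chose the enhancers are a description. PU.1 in GMP shows where the bound class ends. All 10457 enhancers with PU.1 of at least 3 in GMP were in a PU.1 class, and no enhancer outside those classes exceeded 2.999. The highest inside was an enhancer of Puf60, a splicing factor gene, with PU.1 of 2.995 in GMP, and one of Plcb2, a phospholipase C gene, with 2.992. Just outside, in the same stage class but in a PU.1 class, stood enhancers of Rinl with 3.001 and of Ubl3 with 3.003. The boundary runs 1 way only, since 1984 enhancers of the PU.1 classes lay below 3 in GMP.

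The same boundary did not hold in the earlier stages. In wild type preGM 92 of the 2143 enhancers had PU.1 of at least 3, as had 11309 of all 44002. Of those 11309, 10262 were in a PU.1 class, and the 92 were a part of those outside. The highest of the 92 belonged to Krt80, a keratin gene (chromosome 15, 101218335 to 101218427, build mm9), with 5.99 in LSK, 7.66 in preGM and 2.69 in GMP. Next came enhancers of Cradd, a death domain adaptor gene, with 3.33, 5.60 and 2.96 at the same stages, and of Tmem131 with 3.25, 5.51 and 2.17. These enhancers had PU.1 in preGM but lay under the boundary in GMP. The median PU.1 signal of the described enhancers was 0.909 in LSK, 1.17 in preGM and 1.09 in GMP, against 2.68, 4.48 and 4.10 at the bound enhancers of the same stage class. CEBPA in preGM had a median of 0.468, against 0.674 at those bound enhancers. At 61 of the described enhancers (2.85%) it reached 0.923, the median of the CEBPA classes, as it did at 4.36% of the other unbound enhancers.

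H3K27ac at the unbound enhancers was higher at each later stage by its median. That median was 1.08 in LSK, 1.11 in preGM, 1.65 in GMP and 2.18 in granulocytes, while that of all enhancers was 0.936, 0.908, 1.20 and 1.48. H3K4me1 had medians of 3.69, 3.43, 4.39 and 6.99, against 3.26, 3.07, 3.79 and 5.41 for all enhancers. Both marks were thus highest in granulocytes by their medians, and for H3K4me1 96.6% of the described enhancers peaked there, against 66.4% of all. Dividing each column by its median over all enhancers lowered these shares to 51.0% and 39.1%, so much of the peak was shared by the whole table. At the bound enhancers of the same stage class the shares were 97.2% and, after this division, 56.3%. That class names granulocytes, so the peak is not a trait of the unbound enhancers.

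The LSK flag of 0 was not mirrored in the signal. Only 35.4% of the described enhancers had less H3K4me1 in LSK than in preGM, and 58.5% had less H3K27ac. Among all enhancers these shares were 37.5% and 52.4%. At the bound enhancers of the stage class 29.9% had less H3K4me1 in LSK and 67.0% less H3K27ac. An LSK flag of 0 thus did not require less of either mark in LSK than in preGM, and the sources used here state no criterion for the flags.

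**Figure D1:**
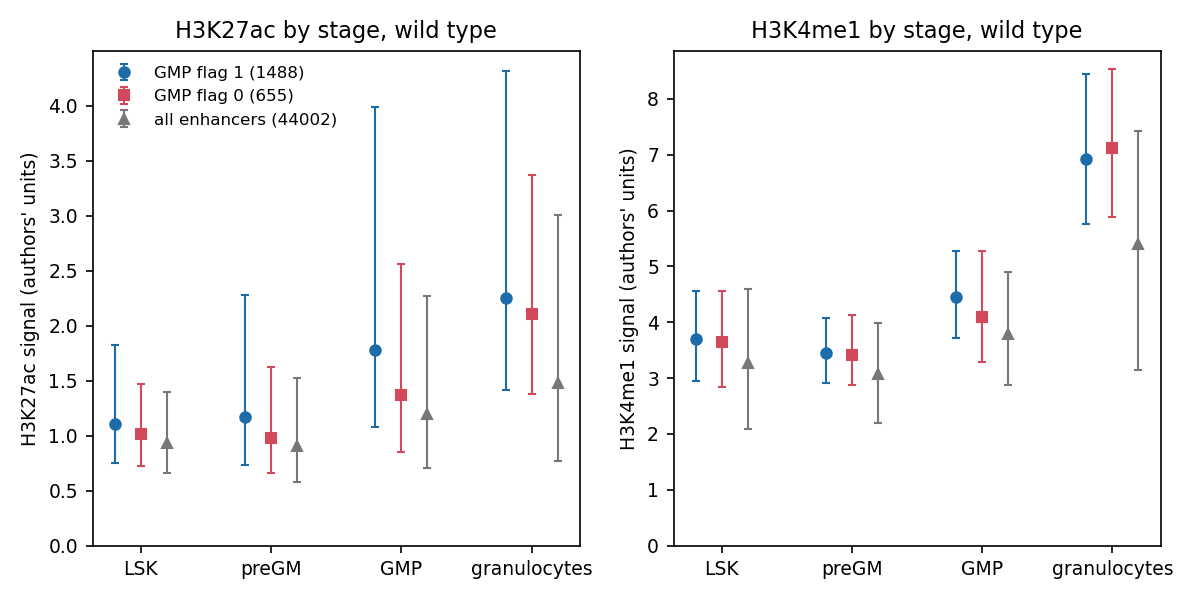
Signal of H3K27ac (left) and H3K4me1 (right) in the authors' units at each wild type stage; points are medians and bars the 25th to 75th percentile over enhancers, for those with GMP flag 1 (1488), those with GMP flag 0 (655) and all 44002. Both marks have their highest medians in granulocytes, and the flag groups stand furthest apart in H3K27ac of GMP, at 1.77 with flag 1 and 1.37 with flag 0.

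Enhancers with GMP flag 0 had less H3K27ac in GMP than those with flag 1, but were not without it. In GMP the median H3K27ac was 1.77 at enhancers with flag 1 and 1.37 at those with flag 0, and in preGM it was 1.17 and 0.975. By these medians the flag 0 enhancers still had more H3K27ac in GMP than in preGM, where their flag is 1. Most of this was shared by the whole table, where the medians were 1.20 in GMP and 0.908 in preGM. The centred median ratio of the flag 0 enhancers was 0.04, with 53.3% of them above 0. H3K4me1 in GMP had medians of 4.45 at flag 1 and 4.09 at flag 0. By granulocytes the order of H3K4me1 was turned, with 6.92 at flag 1 and 7.13 at flag 0, and H3K27ac stood at 2.25 and 2.10.

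A dip in GMP was more frequent with flag 0. With columns scaled by their medians, H3K4me1 in GMP lay below both preGM and granulocytes at 30.4% of the flag 1 enhancers and at 48.2% of the flag 0 enhancers, against 18% of all enhancers. For H3K27ac the shares were 22.1% and 33.6%, against 26.5% of all. Flag 0 was also more common without bound factors: it covered 30.6% of the unbound enhancers of the stage class, 25% of those with PU.1 alone, 23.1% with CEBPA alone and 20.3% with both. In median ratios, H3K27ac in GMP against preGM stood at 0.19 with flag 1 and 0.04 with flag 0, and in granulocytes against GMP at 0.07 and 0.20. For H3K4me1 the ratios were 0.02 and -0.03 at the first of these steps and 0.13 and 0.22 at the other. Since the flag may have been set from measured GMP signal, these values describe it and support nothing further. PU.1 in preGM, with medians of 1.25 at flag 1 and 1.05 at flag 0, and CEBPA in preGM, with 0.463 and 0.470, stood in the same order as H3K27ac for PU.1 and nearly level for CEBPA.

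From preGM to GMP, the step at which primary granule genes reach their peak, 83 of the 2143 enhancers (3.87%) had at least 2-fold higher H3K27ac in GMP, against 2.77% of all enhancers, and 29 (1.35%) had at least 2-fold lower, against 2.13%. These wild type stages helped to choose the enhancers, so nothing is read from the excess. Without centring, the split was 266 higher and 7 lower. A pseudocount 4 times smaller gave 153 higher and 129 lower, or 7.14% and 6.02%, beside 6.42% and 9.86% of all enhancers.

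The most extreme was the single described enhancer of Mpo, which encodes myeloperoxidase of the primary granules (chromosome 11, 87608943 to 87609089, GMP flag 0). Its H3K27ac was 2.24 in LSK, 6.44 in preGM, 43.8 in GMP and 1.29 in granulocytes. That is the highest H3K27ac of any described enhancer in GMP, at an enhancer that the authors' flag leaves out of GMP. H3K4me1 ran the other way, with 4.29, 4.07, 2.03 and 8.21, lowest where H3K27ac was highest. Its PU.1 was 1.12 in LSK, 0.940 in preGM and 1.40 in GMP, all far below the boundary, although a bound enhancer lay within 10 kb.

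Next followed enhancers of Hn1l, with 12.6 in GMP against 2.47 in preGM (log2 1.77), of Ttll11, a tubulin-modifying enzyme gene, with 9.37 against 1.88 (log2 1.67), of Krtcap2, a subunit gene of the N-glycosylation machinery, with 8.07 against 1.64 (log2 1.61), and of Fbxo9. Those of Hn1l and Krtcap2 had less signal again in granulocytes, with 3.65 and 1.29, while Ttll11 had 8.02. The lowest ratios were at enhancers of Pbxip1, with 0.535 in GMP against 2.31 in preGM (log2 -1.58), of Rassf3, with 0.468 against 1.93 (log2 -1.47), of Slc41a2, a magnesium transporter gene, with 0.416 against 1.80 (log2 -1.46), of Id2, an inhibitor of basic helix-loop-helix factors, with 0.423 against 1.77 (log2 -1.43), and of Tmem140, with 0.774 against 2.37 (log2 -1.35). At Pbxip1, Slc41a2 and Tmem140 the granulocyte values were higher again, at 2.28, 4.68 and 1.96.

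H3K4me1 reached 2-fold at this step at 0 described enhancers in either direction, against 0.205% of all enhancers higher and 0.0159% lower in GMP. Of the 2365 bound enhancers of the same stage class 0 were higher and 1 was lower. The stage class names both preGM and GMP, so nothing is read from these H3K4me1 counts. PU.1 was at least 2-fold higher in GMP at 3 of the described enhancers and lower at 5, against 1.00% and 0.536% of all enhancers. The 3 were assigned to Slc25a28, a mitochondrial iron carrier gene, Sox12 and Cflar, an inhibitor of caspase-8. The 5 were assigned to Krt80, Map3k9, Tmem131, Srgn, the granule proteoglycan serglycin, and Agap1. With the smaller pseudocount the counts were 30 and 13. Every enhancer with PU.1 of at least 3 in GMP was in a PU.1 class, so none was among those described. That limit holds back gains in GMP and favours drops from high preGM values, so nothing is read from the PU.1 counts.

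From GMP to granulocytes, 220 of the 2143 enhancers (10.3%) had at least 2-fold higher H3K27ac in granulocytes, against 10.8% of all, and 162 (7.56%) lower, against 8.24%. Both shares lie near the background, and since these stages helped to choose the enhancers nothing is read from them. Without centring the counts were 286 and 117. Higher signal was found at 133 of the flag 1 enhancers (8.94%) and 87 of the flag 0 enhancers (13.3%), and lower signal at 116 (7.80%) and 46 (7.02%).

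The highest ratio was at an enhancer of Abcb11, the bile salt export pump (chromosome 2, 69253213 to 69253811), with 10.1 in granulocytes against 0.442 in GMP (log2 3.10). Anxa11, an annexin gene (chromosome 14, 26675264 to 26675292), had 8.09 against 0.469 (log2 2.77). Ckap4, a membrane protein gene of the endoplasmic reticulum (chromosome 10, 83980266 to 83980404), had 9.70 against 0.866 (log2 2.59). In GMP these values lay below the GMP median of the described enhancers, and in granulocytes well above the granulocyte median. Btnl2 had 5.64 against 0.404 (log2 2.38), and Wsb2, a SOCS box protein gene, had 16.0 against 2.60 (log2 2.19). Expression did not follow at every one: Abcb11 was listed at 15.8 in granulocytes and 16.7 in GMP, while Anxa11 was at 162 and 47.4 and Wsb2 at 460 and 199.

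The lowest ratio was that of Mpo, at log2 -4.63. Bend3, a gene of a chromatin-binding repressor (chromosome 10, 43199061 to 43199119), had 0.698 in granulocytes against 9.88 in GMP (log2 -3.06). Grlf1, a GTPase activator gene, had 1.10 against 10.7 (log2 -2.81). Arl4a, a small GTPase gene, had 1.99 against 14.8 (log2 -2.67), and Bcl2, the inhibitor of apoptosis (chromosome 1, 108610857 to 108611089), had 2.49 against 15.9 (log2 -2.53). All 5 enhancers had more H3K4me1 in granulocytes than in GMP: it was 8.21 in granulocytes against 2.03 in GMP at Mpo, 10.2 against 3.67 at Bend3, 10.9 against 3.72 at Grlf1, 11.4 against 4.82 at Arl4a and 10.6 against 4.73 at Bcl2.

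**Figure D2:**
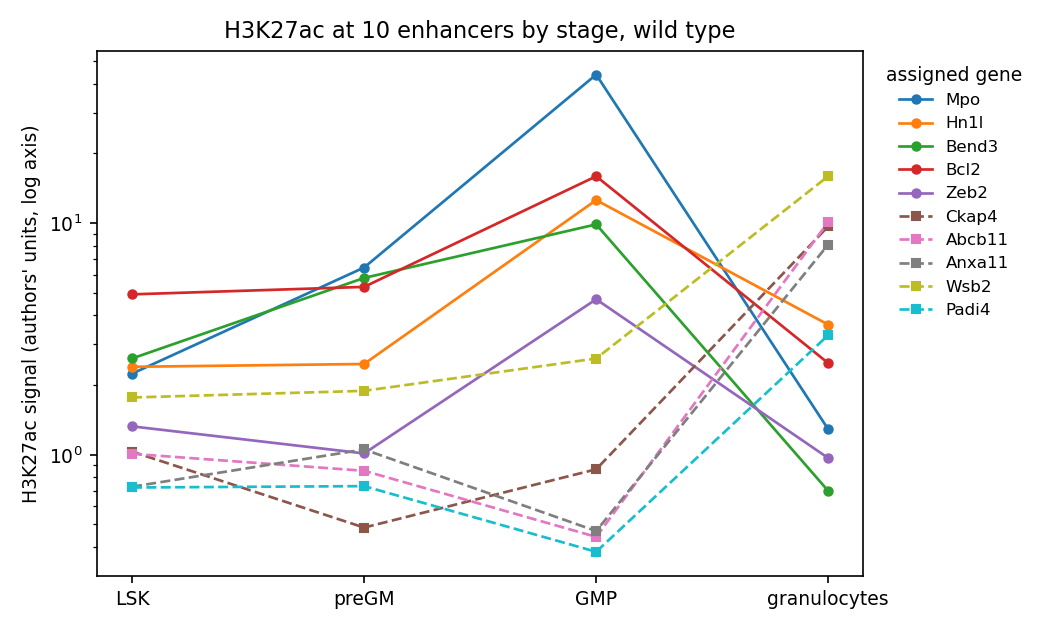
H3K27ac signal (authors' units, log axis) at 10 of the described enhancers in wild type LSK, preGM, GMP and granulocytes, 1 value per stage, named by assigned gene. Solid lines with circles peak in GMP, led by Mpo at 43.8, and dashed lines with squares are highest in granulocytes, led by Wsb2 at 16.0.

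The same held for the group. Of the 162 enhancers with lower H3K27ac in granulocytes, 141 (87.0%) had a centred H3K4me1 ratio above 0, with a median of 0.41, and the median H3K4me1 was 8.07 in granulocytes against 4.04 in GMP. Among the 220 with higher H3K27ac the share was 81.4% and the median 0.25, and among the 1761 with neither it was 71.1% and 0.13. Of all 2143 described enhancers 73.4% lay above 0. Over all enhancers with lower H3K27ac at this step the share was 48.0% and the median -0.04. A granulocyte flag of 1 is part of how the enhancers were chosen, and how far it fixes this H3K4me1 difference was not tested.

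H3K4me1 itself was at least 2-fold higher in granulocytes at 8 of the described enhancers (0.373%), 7 of them with GMP flag 0, and lower at 0, against 3.43% and 10.2% of all enhancers. The bound enhancers of the same stage class had 8 of 2365 higher (0.338%) and 0 lower. A granulocyte flag of 1 is common to the whole stage class, so nothing is read from these counts. The H3K4me1 ratio was highest at Mcm5, a subunit gene of the replicative helicase, with 10.5 in granulocytes against 2.07 in GMP (log2 1.29). Then came Map4k2, a kinase gene, with 15 against 4.10, Arhgap25, a Rac-inhibiting gene of phagocytes, with 12.5 against 3.23, Myh9, nonmuscle myosin heavy chain, with 14.5 against 4.0, and Map3k9 with 7.98 against 1.92. Uncentred, 109 were higher, and with the smaller pseudocount 53 were.

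The 8 enhancers with the strongest mean H3K27ac over the 4 wild type stages were assigned to 8 genes. At Vamp2, a vesicle fusion protein gene (chromosome 11, 68901979 to 68902209), it was 7.92 in LSK, 12.1 in preGM, 30.6 in GMP and 39.1 in granulocytes. At Hnrnpl, a splicing regulator gene, it was 9.34, 12.6, 21.0 and 33.4, and at Sar1a, a vesicle coat GTPase gene, 9.49, 12.7, 19.1 and 30.6. Zfp367, Puf60, Tti1, a gene of a kinase assembly factor, Anks1 and Sik3, a salt-inducible kinase gene, completed the first 8. Of these, Zfp367 alone did not peak in granulocytes, with 30.7 in GMP and 20.1 in granulocytes. Vamp2 and Puf60 had no other enhancer in the table.

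Among flag 0 enhancers the highest H3K27ac in granulocytes was at Tti1, with 24.7, then at Arl2, a small GTPase gene, with 22.6, at Napa, a vesicle fusion adaptor gene, and Aup1, a gene of the endoplasmic reticulum and lipid droplets, with 16.6 each, and at Ube2j1, a ubiquitin enzyme gene of the endoplasmic reticulum, with 15.7. Their GMP values were 22.9, 14.2, 12.5, 13.6 and 11.1, all several times the GMP median of the flag 1 enhancers. A flag of 0 in GMP was thus compatible with strong H3K27ac there.

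Strong and weak enhancers differed in more than H3K27ac. In 5 equal groups by mean H3K27ac, the median PU.1 in preGM was 0.769 in the weakest and 1.78 in the strongest, and flag 0 covered 35.9% of the weakest and 22.6% of the strongest. H3K4me1 in GMP did not run in parallel: its median was 3.78, 4.42, 4.76, 4.87 and 3.99 from the weakest to the strongest group. Over all enhancers the median PU.1 was 0.802 in the weakest and 2.88 in the strongest group, and H3K4me1 in GMP was 3.0 in the weakest, 4.57 in the fourth and 4.32 in the strongest. Flag 0 covered 55.0% of the weakest and 35.1% of the strongest group of all enhancers, so its fall was general to the table.

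The described enhancers of the listed mature granulocyte genes all had more H3K27ac in granulocytes than in GMP. Of 20 listed secondary granule and mature neutrophil genes 14 were in the table and 2 had described enhancers, beside 1566 of all 10096 genes. These were 3 of the 130 enhancers of the list, while the described enhancers make up 4.87% of the table. Each of the 3 was at least 2-fold higher in granulocytes than in GMP, against 10.8% of all enhancers, with a median log2 ratio of 1.35. By construction that median is 0 over all enhancers. Padi4, the enzyme that citrullinates histones, had 2.14 against 0.308 at its first enhancer (log2 1.35) and 3.29 against 0.381 at its second (log2 1.74). Mmp9, gelatinase B, had 2.07 against 0.478 (log2 1.09). The GMP values of all 3 enhancers lay below the pseudocount of 0.7. Expression was 745 in granulocytes and 25.7 in GMP for Padi4, and 6049 and 30.1 for Mmp9, 2 of 2 genes higher, against 12.2% of all genes. Of 6 primary granule genes Mpo had a described enhancer, 1 of the 31 enhancers of that list.

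Among 15 listed adhesion and migration genes, 6 had 16 described enhancers, of which 3 were higher in granulocytes and 0 lower, against 10.8% and 8.24% of all enhancers, with a median log2 ratio of 0.25. Itgal, the alpha chain of LFA-1, had 2.89 in granulocytes against 0.439 in GMP (log2 1.52), Selplg, the selectin ligand PSGL-1, had 4.77 against 1.20 (log2 1.38), and Cdc42, a GTPase of cell polarity, had 2.83 against 0.730 (log2 1.16). Expression was higher for 5 of the 6 genes, against 12.2% of all genes and 21.8% of genes with a described enhancer. The exception was Cdc42, at 4331 in granulocytes and 2943 in GMP. The Itgb2 enhancer, of the beta chain shared by leukocyte integrins, had the highest H3K4me1 of any described enhancer, 16.9 in granulocytes against 6.42 in GMP.

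Other groups had 1 or 2 enhancers each with at least 2-fold higher H3K27ac in granulocytes, to be read against 10.8% of all enhancers. Of 5 enhancers at 3 innate sensing genes, 2 were higher in granulocytes: Nfkbia, the NF-kB inhibitor, with 3.72 against 0.819 in GMP (log2 1.40), and Irak2, a kinase of Toll-like receptor signalling, with 6.89 against 1.64 (log2 1.56). Of 4 at 3 oxidase and lysosome genes, the enhancer of Ctsd, cathepsin D, was higher, with 6.77 against 2.25 (log2 1.20). Of 11 at 6 receptor genes, that of Cxcr4, the marrow retention receptor, was higher, with 3.30 against 0.977 (log2 1.11), although its expression was 422 in granulocytes and 769 in GMP. Of 10 at 4 stem and progenitor genes, 1 enhancer of Erg, an ETS factor gene, was higher, with 4.11 against 1.11 (log2 1.27). The list medians were 0.68, 0.44, 0.27 and -0.02 in this order. Both enhancers of Emr1, the F4/80 antigen gene and the 1 of 17 listed monocyte and macrophage genes represented, stayed under 2-fold.

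Lower H3K27ac in granulocytes, found at 8.24% of all enhancers, occurred in 3 of the lists, Mpo among them. Of 12 enhancers at 4 myeloid transcription factor genes, 2 were lower in granulocytes: Zeb2, a zinc finger repressor gene, with 0.968 against 4.69 in GMP (log2 -1.83), and Etv6, an ETS repressor gene, with 1.21 against 4.32 (log2 -1.53). Of 9 at 7 cell cycle genes, Rrm2, a ribonucleotide reductase subunit gene, was lower, with 2.05 against 4.40 (log2 -1.03), while Rrm2 and Ccna2, cyclin A2, had been higher in GMP than in preGM, with 4.40 against 0.997 and 3.54 against 0.723. The list medians of the granulocyte ratio were -0.19 for the transcription factor genes and 0.19 for the cell cycle genes. Expression was lower in granulocytes for 6 of these 7 cell cycle genes. Over all genes, 17.7% were lower. Markers of 6 other cell types (erythroid, megakaryocyte, B, T and NK, mast and basophil, and dendritic cells) had 81 enhancers in the table at 18 genes, and 0 of them were among the described enhancers, which make up 4.87% of the table. Of the 81, 1 was in the stage class by which the enhancers were chosen, so nothing about unbound enhancers is read from the 0.

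Most genes had 1 described enhancer (1209 of 1566), and 115 had at least 3. Myh9 had the most, 9 of its 53 enhancers, within 53.3 kb. Their H3K27ac in granulocytes was 1.58 at the lowest, 3.11 at the median and 7.89 at the highest, and in GMP 0.639, 1.16 and 4.09. Of the 9, 1 was at least 2-fold higher in granulocytes, while expression of Myh9 was lower there, at 1550 against 2329 in GMP. Fnbp1, an F-BAR protein gene of membrane curvature, had 8 of 32, and Irf2bp2, Zfp217, Zfp36l2 and Zrsr1 had 7 each. At Irf2bp2, a corepressor gene, 2 of 7 were lower in granulocytes, where expression was 424 against 970 in GMP. Enhancers of 1 gene are neighbours and not independent.

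The unbound enhancers were not isolated from bound ones. A bound enhancer lay within 10 kb, between midpoints, of 1547 of them (72.2%), against 65.9% of the unbound enhancers of other stage classes and 66.4% of all. The share was 71.4% with flag 1 and 74.0% with flag 0, and bound enhancers of the same stage class had another bound one nearby in 70.8%. An enhancer bound by both factors lay within 10 kb of 32.0%, against 26.6% of all. The nearest enhancer of any kind was at a median of 0.792 kb, against 0.844 kb for all. Median width was 149 bp, 159 bp for the bound enhancers of the class and 194 bp for all, so the narrow form went with the stage class.

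A CEBPA class neighbour went with another course of H3K27ac. Such a neighbour lay within 10 kb of 1147 described enhancers (53.5%), against 46.4% of all unbound enhancers. In granulocytes against GMP, the median centred H3K27ac ratio was 0.20 with the neighbour and -0.03 without, and at least 2-fold lower signal was found at 4.53% and 11.0%. From preGM to GMP the order was reversed, with medians of 0.08 and 0.23. Over all unbound enhancers the granulocyte step gave 0.12 and -0.14, so that contrast is a general one, whereas the GMP step gave -0.05 and -0.09. The enhancers without a neighbour were stronger at the start, with a median H3K27ac of 1.49 in preGM against 0.955 with one, and the part of this in the ratios was not tested.

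**Figure D3:**
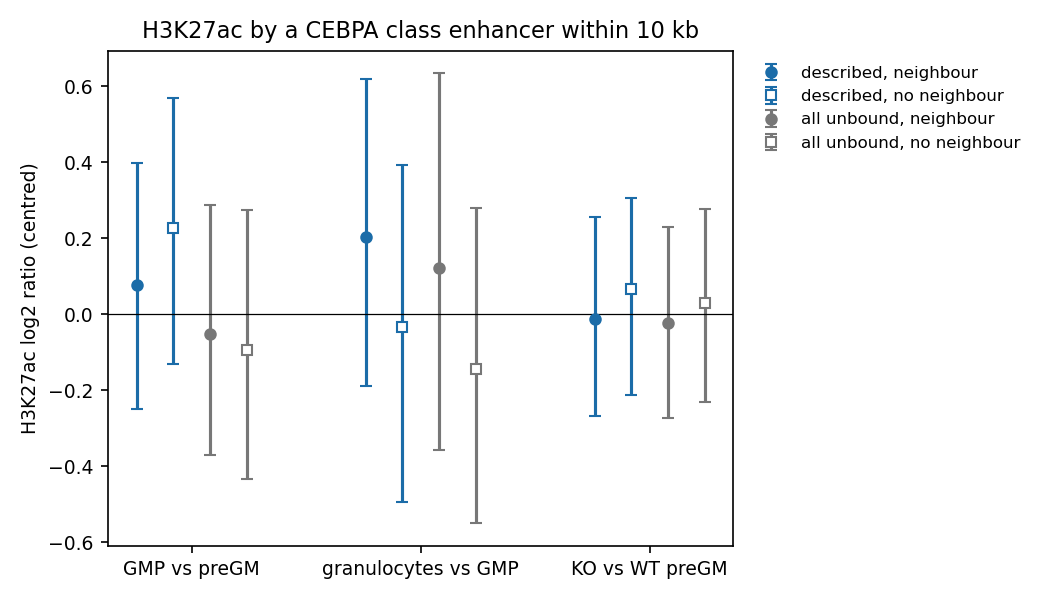
Centred log2 ratio of H3K27ac (vertical axis) in 3 comparisons for the described enhancers (blue) and all unbound enhancers (grey), with a CEBPA class enhancer within 10 kb (filled circles) or without (open squares); points are medians and bars the 25th to 75th percentile over enhancers. In granulocytes against GMP the described enhancers have medians of 0.20 and -0.03, and in KO against wild type preGM all medians lie within 0.07 of 0.

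In CEBPA KO preGM the marks of these enhancers had nearly the levels of wild type preGM. Cebpa itself, with 16 enhancers in the table and 0 among those described, was expressed at 48.3 in KO and 208 in wild type preGM. H3K27ac of the described enhancers had a median of 1.16 in KO and 1.11 in wild type preGM, with a centred median ratio of 0.03. It was at least 2-fold higher in KO at 8 of 2143 (0.373%), against 0.323% of all enhancers, and lower at 13 (0.607%), against 0.657%, both near the background. With the smaller pseudocount the counts were 58 and 73, or 2.71% and 3.41%, beside 3.50% and 4.80% of all. With a CEBPA class neighbour the median ratio was -0.01, and without it was 0.07. The flag groups did not differ here, with 0.03 each. Bound enhancers of the same stage class were as little changed, with median H3K27ac of 1.46 in KO and 1.52 in wild type preGM. Their centred median ratio was -0.005, with 0.0846% higher and 0.761% lower in KO, so near-level H3K27ac was not particular to the unbound enhancers.

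The lowest KO values were at Id2, where neighbouring enhancers (chromosome 12, 25782464 to 25782618 and 25782873 to 25782957) had H3K27ac of 0.181 in KO against 1.76 in wild type preGM (log2 -1.53) and 0.383 against 1.77 (log2 -1.24). Tgfbi, a secreted matrix protein gene (chromosome 13, 56717733 to 56717968), had 0.809 against 3.25 (log2 -1.43), Lcp1, an actin-bundling protein gene, had 0.234 against 1.67 (log2 -1.39), and Mapkapk2, a kinase gene of the p38 pathway, had 0.163 against 1.33 (log2 -1.28). At Tgfbi the mark in wild type LSK was 0.613, so the KO value lay between LSK and wild type preGM. At the Id2 enhancers H3K4me1 was higher in KO, with 2.60 against 2.11 and 4.18 against 3.19, and it was below wild type at 0 of the 5 described enhancers of that gene. H3K4me1 was 3.80 in KO against 3.61 in wild type preGM at the Tgfbi enhancer, 2.44 against 2.86 at that of Lcp1 and 1.45 against 3.55 at that of Mapkapk2. All 6 described enhancers of Mapkapk2 had less H3K27ac in KO, with medians of 0.642 and 1.20 in KO and wild type preGM, and 5 of the 6 had less H3K4me1; this gene was singled out after its values were seen. Expression of these 4 genes was 194, 64.3, 1577 and 292 in KO preGM and 126, 103, 2297 and 470 in wild type preGM, so Id2 alone was higher in KO.

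The highest KO values were at Fnbp1l, an F-BAR protein gene, where neighbouring enhancers (chromosome 3, 122322677 to 122322748 and 122323194 to 122323269) had 4.53 in KO against 1.25 in wild type preGM (log2 1.38) and 2.36 against 0.643 (log2 1.14). Their LSK values were 2.58 and 1.96. Ptms, parathymosin, had 1.86 against 0.455 (log2 1.10), Tmtc2 had 1.96 against 0.501 (log2 1.10) and Rab20, a small GTPase gene, had 1.74 against 0.423 (log2 1.08). Many of these values are close to the pseudocount, and Fnbp1l was the one gene with 2 of them. Its expression was 951 in KO and 629 in wild type preGM.

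H3K4me1 was 2-fold different at 0 described enhancers in either direction, against 0% of all higher and 0.00909% lower in KO. Its median was 3.95 in KO and 3.43 in wild type preGM, a shift shared by all enhancers, whose medians were 3.48 and 3.07.

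PU.1 in the KO differed between unbound and bound enhancers. At the described enhancers its median was 0.958 in KO and 1.17 in wild type preGM, and at the bound enhancers of the same stage class 2.75 and 4.48. The centred median ratios were 0.08 and -0.36, and within the described enhancers 0.06 with flag 1 and 0.13 with flag 0. It was at least 2-fold higher in KO at 19 described enhancers (0.887%), against 0.725% of all, and lower at 4 (0.187%), against 1.99%, while of the 2365 bound enhancers of the class 3 were higher and 95 lower. Without centring, the split at the described enhancers was 2 higher and 36 lower, since PU.1 was lower in KO over the whole table by a median log2 of 0.27 (-0.27 as KO over wild type). The bound class was set with PU.1 signal and the described values lie close to the pseudocount, so the difference between the classes is a description.

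**Figure D4:**
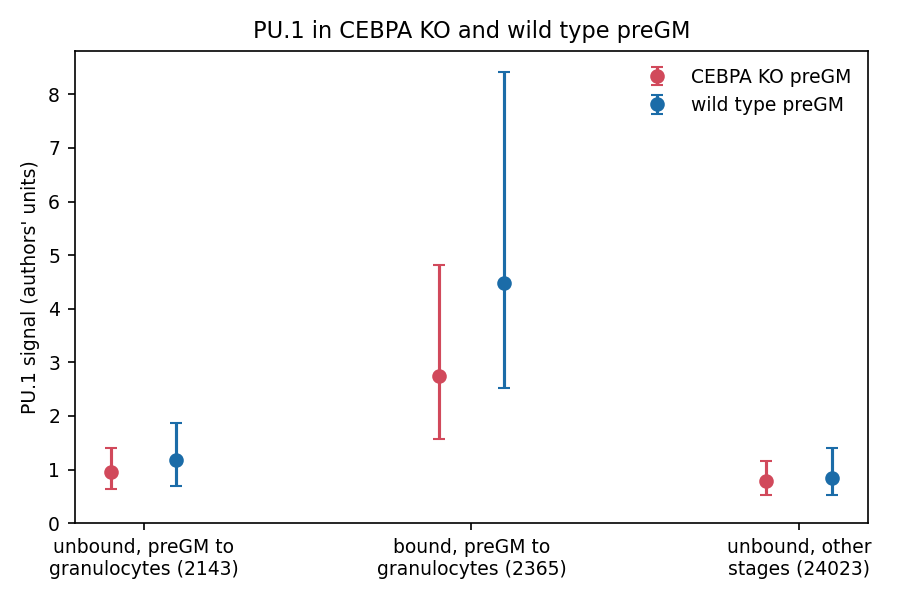
PU.1 signal (authors' units) in CEBPA KO preGM (red, left) and wild type preGM (blue, right) at the described enhancers, at bound enhancers of the same stage class and at unbound enhancers of other stage classes; points are medians and bars the 25th to 75th percentile over enhancers. The medians are 0.958 and 1.17 at the described enhancers and 2.75 and 4.48 at the bound ones.

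Of the 4 enhancers lower in PU.1, Itpkb, an inositol phosphate kinase gene, had 0.410 in KO against 2.26 in wild type preGM (log2 -1.24) and Pdcd4, a translation inhibitor gene, had 0.236 against 1.63 (log2 -1.15). Tbc1d2b was among them too. The highest ratios were at Elovl6, a fatty acid elongase gene, with 1.65 against 0.447 (log2 1.37), Ccdc88c, with 1.05 against 0.265 (log2 1.20), Rac1, a GTPase gene of phagocyte migration, with 1.19 against 0.356 (log2 1.17), Gadd45b, a stress response gene, with 1.45 against 0.501 (log2 1.16) and Notch2, a Notch receptor gene, with 1.03 against 0.275 (log2 1.16). All of these values were under 3.

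The table also gives expression columns per gene, which the enhancers were not chosen by. They form 2 sets on different scales, 1 over the 4 wild type stages and 1 of KO and wild type preGM, and whether they come from the listed RNA-seq libraries is not stated, so values were compared within a set only. No replicate error is available for them. Ratios use a pseudocount of 40 and are centred on all 10096 genes.

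Genes with a described enhancer were expressed more than genes with none. Their median was 194 in LSK, 213 in preGM, 209 in GMP and 207 in granulocytes, against 98.0, 107, 99.7 and 78.7 at genes with none. Much of this was shared by the 1760 genes with a bound enhancer of the same stage class, with 168, 194, 189 and 191. The 1213 of these without a described enhancer had 148, 174, 165 and 151. From GMP to granulocytes 342 of the 1566 genes (21.8%) were at least 2-fold higher in granulocytes, against 12.2% of all genes and 10.4% of genes with none, and 248 (15.8%) were lower, against 17.7% and 18.1%.

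More described enhancers went with a larger share. Among the 115 genes with at least 3, 33.0% were higher and 7.83% lower. Among 177 genes with enhancers of both flags, which have at least 2 by construction, the shares were 36.2% and 7.34%. Genes with flag 1 enhancers alone had 18.4% higher and 15.5% lower, and those with flag 0 alone 24.2% and 20.8%. The 1760 genes with a bound enhancer of the same stage class had nearly the shares of the described set, 20.5% higher and 16.6% lower. Those 1213 of them without a described enhancer had 15.7% and 19.0%.

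The number of enhancers of any kind moved with the same shares. Genes with a described enhancer had a median of 6 enhancers, against 2 for all genes. Within genes of 1 enhancer, 5.53% were higher with a described enhancer and 5.29% without. For 2 to 3 enhancers the shares were 15.3% and 8.31%, for 4 to 7 they were 16.8% and 15.6%, and for 8 or more 32.3% and 26.0%. The differences in the higher share were thus smaller at equal enhancer number than over all genes. The lower share was 21.6% with a described enhancer and 18.9% without at 1 enhancer, 22.4% and 18.2% at 2 to 3, 16.0% and 17.2% at 4 to 7, and 11.1% and 16.0% at 8 or more. At 2 to 3 enhancers both the higher and the lower share were larger with a described enhancer.

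**Figure D5:**
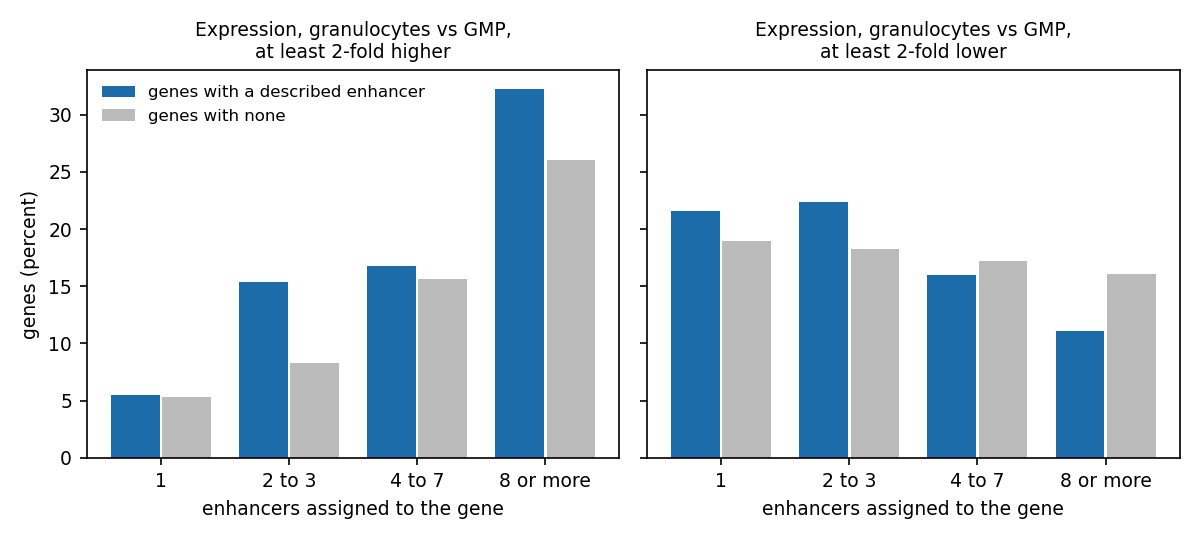
Share of genes (percent) whose expression was at least 2-fold higher (left) or lower (right) in granulocytes than in GMP, by the number of enhancers assigned to the gene, for genes with a described enhancer (blue) and genes with none (grey). The higher share grows with enhancer number in both sets, to 32.3% and 26.0% at 8 or more.

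By expression in granulocytes against GMP the leading genes were Mmp9 with log2 6.51, Plbd1, a phospholipase-like granule protein gene, with 4988 against 61.2 (log2 5.71), Itgb2 with 10856 against 238 (log2 5.36), Slc2a3, a glucose transporter gene, with 6425 against 177 (log2 4.97) and Cd9, a tetraspanin gene, with 2194 against 49.9 (log2 4.71). Their strongest described enhancers had H3K27ac of 2.07, 3.09, 4.39, 2.51 and 12.6 in granulocytes, against 0.478, 0.596, 1.84, 0.718 and 4.52 in GMP. At the other end stood Kdm2b, a histone demethylase gene, with 71.5 against 3989 (log2 -5.10), Ankrd10 with 60.9 against 2275 (log2 -4.45), Slco4a1, a transporter gene, with 46.9 against 1944, Umps, a pyrimidine synthesis gene, with 124 against 2957, and Ppa1, a pyrophosphatase gene, with 67.3 against 1534. Kdm2b and Ankrd10 also had lower H3K27ac, 2.03 against 7.11 and 6.73 against 20.3, whereas Umps had 0.557 against 0.531.

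Over the 1566 genes, each with its strongest described enhancer, the Spearman correlation across genes of the H3K27ac and expression ratios at this step was 0.398, beside 0.393 over all 10096 genes with their strongest enhancer. Genes share stages and libraries and are not replicates, so this is a description. Of 171 genes with higher H3K27ac, 68 had higher expression, and of 147 with lower H3K27ac, 62 had lower expression. Over all genes these counts were 356 of 935 and 624 of 1565, similar shares.

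Few of these genes differed 2-fold at the earlier step or in the KO. From preGM to GMP, 56 of 1566 (3.58%) were higher and 54 (3.45%) lower in GMP, against 2.75% and 3.01% of all genes. Fos, an immediate early gene, had 2291 in GMP against 110 in preGM, but 9706 in LSK, and Fcgr3, an Fc receptor gene, had 1262 against 84.2. Hlf, a stem cell transcription factor gene, had 79.2 against 619, and H3K27ac at its described enhancer was 1.03 against 1.62.

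In KO preGM 4 genes were higher and 4 lower than in wild type preGM (0.255% each), against 0.277% and 0.406% of all genes, again near the background. Lower were Emb, embigin, with 160 in KO against 1758 in wild type preGM (log2 -3.17), Hk3, the myeloid hexokinase, with 62.5 against 282 (log2 -1.65), and Gm885 with 211 against 473. Higher were Clec4e, a C-type lectin receptor gene, with 1254 against 396 (log2 1.57), Aqp11, an aquaporin gene, with 647 against 225, Marcks, an actin-linked kinase substrate, with 829 against 383, and Trp53inp1, a p53 target gene, with 642 against 292. With a pseudocount 4 times smaller the counts were 7 and 10.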

How the data were processed

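The values come from 1 deposited table of enhancers in build mm9. Its ChIP-seq columns hold a linear signal made by the authors, 1 per group of 2 libraries, with the pooling and scaling not given in the sources used here, and its expression columns hold a deposited score per gene, of unstated origin and scale. Bowtie2, MACS2, bedtools, STAR, featureCounts and DESeq2 are listed, per the submitters' processing notes. Depth is unknown. No annotation of mm9 was used, so exons and introns are not given, and no sequence is shown. A further 11 value columns were not used.

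The enhancers and gene lists were chosen with earlier results of these data known. Log2 ratios used pseudocounts near the 25th percentile of each assay and were centred on the median of all features. That median was 0.29 and 0.14 for H3K27ac in GMP against preGM and granulocytes against GMP, 0.21 and 0.32 for H3K4me1, 0.10 for H3K4me1 in KO, and -0.27 for PU.1 in KO. A 2-fold difference counted as higher or lower. Genes named are up to 5 enhancers per comparison on each side, by ratio, past 2-fold and not under the column's median in the higher group, the 8 strongest enhancers, those with most enhancers, and list members; the enhancers near the PU.1 boundary, Mapkapk2 as a gene, the neighbour groups and the joint view of both marks were chosen after their values were seen. Some enhancers and genes that this rule names are not reported here. Steps were tested on simulated data. Python 3.11.15, pandas 2.3.3, numpy 2.4.6 and scipy 1.17.1 were used.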

Additional observations from a re-analysis of the deposited data

How the results depend on the processing

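Of 223 alternative values 168 stayed within 1.5 times (counts), 0.1 log2 (ratios) or the same relative margin (levels), and 55 moved further. Among the 55 was PU.1 in KO, which without centring turned from mostly higher to mostly lower (median log2 0.08 with centring, -0.19 without). Another was PU.1 in GMP, which with the smaller pseudocount turned from mostly lower to mostly higher. All 22 differences of median ratios between the flag groups were among the 168. Most of the main differences were themselves smaller than the 0.1 margin, so staying within it says little about them. For H3K4me1 in preGM against LSK the difference was 0.0006, and -0.008 with 1 enhancer per gene, which still counted as unmoved. No paired analysis was possible because each group has 1 pooled value, and for the same reason no replicate could be left out. A pseudocount 4 times smaller gave 153 enhancers with higher and 129 with lower H3K27ac in GMP than in preGM, 340 with higher H3K27ac in granulocytes than in GMP, and 58 and 73 with higher and lower H3K27ac in KO. It gave 1 with lower H3K4me1 in GMP, 53 with higher H3K4me1 in granulocytes, 4 with lower H3K4me1 in KO, 30 and 13 with higher and lower PU.1 in GMP, and 147 and 29 with higher and lower PU.1 in KO. For genes it gave 93 with lower expression in GMP, and 7 and 10 with higher and lower expression in KO. Without centring, 266 and 7 had higher and lower H3K27ac in GMP, 109 higher H3K4me1 in granulocytes, and 2 and 36 higher and lower PU.1 in KO. Features at or above the 25th percentile left 4 with higher H3K4me1 in granulocytes and 31 with higher PU.1 in KO. With 1 enhancer per gene, 18 had lower H3K27ac in GMP, 8 lower H3K27ac in KO, 3 lower PU.1 in GMP, and 12 and 1 higher and lower PU.1 in KO; the fewer enhancers account for part of this by construction. The same setting gave median H3K27ac, with flag 1 and flag 0, of 1.21 and 1.09 in LSK, 1.36 and 1.05 in preGM, 2.12 and 1.53 in GMP, 2.53 and 2.26 in granulocytes, and 1.38 and 1.15 in KO preGM, since it keeps the strongest enhancer, and median PU.1 with flag 1 of 1.04 in LSK, 1.34 in preGM, 1.29 in GMP and 1.07 in KO preGM. Flag 0 enhancers of at least 108 bp had median H3K4me1 of 3.38 in LSK and 3.71 in GMP and median PU.1 of 0.977 in preGM. A bound neighbour was found for 63.6% within 5 kb and 90.1% within 50 kb, and 1 with both factors for 32.0%. The cause was not tested where none is given. With 1 value per group no count can be told from the spread between libraries.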

Other observations

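Of the genes with a described enhancer, 73.4% also had a bound enhancer somewhere in the table, against 68.4% of genes with none. The 4 genes with a described enhancer and the lowest expression ratio of preGM to LSK were Fos, Jun, Ccl3 and Dusp1: Fos was at 110 in preGM against 9706 in LSK, Jun at 11.6 against 963, Ccl3 at 39.5 against 1482 and Dusp1 at 102 against 2459. H3K27ac in preGM at the strongest described enhancers of these genes was 3.10, 2.91, 1.44 and 3.76. Rab44, a large Rab GTPase gene, and Mpo ran the other way, at 713 in preGM against 80.9 in LSK and 10292 against 2312. On chromosome X lay 3 of the 2143 described enhancers and 96 of the 44002 in the table.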
